A study of Mus musculus with 31 samples.

Results

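The complement and coagulation genes described here are 46 gene symbols, named in a list of components of both cascades, out of 25239 symbols in the count table of the study. All 46 were found. They fall into 11 classical and lectin pathway genes, 4 of the alternative pathway with C3, 2 complement inhibitors, 5 terminal complement genes, 2 anaphylatoxin receptors, 4 contact system genes, 6 extrinsic and common coagulation factors, 5 genes of fibrin formation, 3 of the protein C pathway, 3 of fibrinolysis with histidine-rich glycoprotein, and Vwf. By textbook source, 35 are made mainly by hepatocytes, 7 by macrophages or other myeloid cells (C1qa, C1qb, C1qc, Cfp, C3ar1, C5ar1 and F13a1) and 4 by endothelial or other cells (Cfd, F3, Thbd and Vwf).

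RNA was sequenced from hepatocyte and hepatic stellate cell preparations of male and female mice of the inbred strain C57BL/6J. For 16 weeks the mice were fed chow, or the FPC diet (fructose, palmitate and cholesterol), labelled as the NASH arm, a diet used to bring on steatohepatitis. No group carried a transgene, deletion or drug. Each group of sex, diet and preparation had 4 libraries, one per mouse, except stellate cells of females on chow, which had 3, giving 31 libraries. Hepatocytes were the cells pelleted at low speed after protease and collagenase digestion, and stellate cells were the layer recovered from a Nycodenz density step, with no sorting by a marker, so both are enriched rather than pure cell populations.

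Complement is a cascade of plasma proteases. C1q and the mannose-binding lectins recognise a surface, their proteases cleave C4, C2 and then C3, the alternative pathway amplifies C3 cleavage, and the terminal proteins assemble into a membrane pore. Coagulation is a second protease cascade that ends with thrombin cutting fibrinogen to fibrin, opposed by the protein C pathway and by plasmin. Hepatocytes secrete most of these proteins into plasma, whereas resident macrophages of the liver, the Kupffer cells, are a main source of C1q and properdin.

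Whole libraries held 3.44 M to 40.26 M counts, and the members took 1.464 to 2.149% of all counts in hepatocyte libraries on chow. They took 0.113 to 1.292% in hepatocyte libraries on FPC and 0.17 to 0.654% in stellate cell libraries. The 0.113% was that of hepatocyte male FPC library 4, and the other hepatocyte FPC libraries held at least 0.685%. Library 4 of that group stood apart: the ribosomal RNA symbol Rn45s took 84.29% of its 27.26 M counts, and 1.49 M counts remained outside Rn45s and Lars2. Its members held 30802 counts, so the 0.113% is a share of counts that are mostly Rn45s. The diet results in male hepatocytes are given with and without that library. The stellate cell label was checked against marker genes fixed in a list. Quiescent stellate cell markers were lower in the stellate cell libraries than in the hepatocyte libraries on chow (8 of 9 lower in the test, median log2 difference -2.24). Des, for instance, averaged 62.4 ± 31.5 CPM (counts scaled to library size, SD, n = 4) in hepatocyte female chow libraries and 4.36 ± 1.94 CPM (SD, n = 3) in the stellate cell ones. B cell markers were higher there (5 of 5, median 2.15), hepatocyte markers lower (15 of 15, median -5.04), and Kupffer cell markers were present in both preparations (median difference -0.55, summed level 5216 to 18509 CPM in hepatocyte and 3646 to 15555 CPM in stellate cell chow libraries). The name stellate cell is therefore used below as the label of a preparation, not of a verified cell type. In bulk RNA of this kind, fewer cells of a type and less RNA per cell cannot be told apart.

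Promoter sequences are shown first for the members on which the results turn. These are the 3 fibrinogen chains, which had negative diet values in male hepatocyte libraries. Beside them are the terminal complement genes C8a, C8b and C9, which differed between the sexes. With them are 2 C1q chains, which had negative diet values in female hepatocyte libraries, as did Kupffer cell markers. The sequences are the 250 bases before the RefSeq transcription start on GRCm38.p6, 5′ to 3′ on the gene's own strand, with motif matches in capitals. The motifs searched on both strands were C/EBP (TTGCNNAA), the interleukin-6 response element (CTGGGAA), STAT5 (TTCNNNGAA), PU.1 (GAGGAAGT), HNF1 and HNF4 (CAAAGTCCA).
Fga: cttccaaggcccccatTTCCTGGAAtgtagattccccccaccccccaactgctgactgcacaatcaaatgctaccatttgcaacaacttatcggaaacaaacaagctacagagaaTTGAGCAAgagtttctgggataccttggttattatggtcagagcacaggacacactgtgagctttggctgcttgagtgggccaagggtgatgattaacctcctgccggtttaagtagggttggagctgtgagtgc
Fgb: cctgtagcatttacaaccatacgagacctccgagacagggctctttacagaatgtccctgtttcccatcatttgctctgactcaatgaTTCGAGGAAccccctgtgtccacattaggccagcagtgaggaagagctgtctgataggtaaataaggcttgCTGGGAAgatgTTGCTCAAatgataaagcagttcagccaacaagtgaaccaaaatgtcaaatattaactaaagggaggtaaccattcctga
Fgg: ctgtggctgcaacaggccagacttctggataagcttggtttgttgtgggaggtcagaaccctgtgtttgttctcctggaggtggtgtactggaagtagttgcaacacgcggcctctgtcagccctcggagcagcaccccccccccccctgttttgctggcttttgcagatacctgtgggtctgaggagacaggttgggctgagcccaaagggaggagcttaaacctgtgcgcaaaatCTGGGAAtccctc
C8a: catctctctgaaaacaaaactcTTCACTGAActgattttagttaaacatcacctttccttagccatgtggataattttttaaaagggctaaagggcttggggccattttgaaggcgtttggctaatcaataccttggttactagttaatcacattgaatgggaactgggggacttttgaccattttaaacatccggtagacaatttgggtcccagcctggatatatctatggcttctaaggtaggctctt
C8b: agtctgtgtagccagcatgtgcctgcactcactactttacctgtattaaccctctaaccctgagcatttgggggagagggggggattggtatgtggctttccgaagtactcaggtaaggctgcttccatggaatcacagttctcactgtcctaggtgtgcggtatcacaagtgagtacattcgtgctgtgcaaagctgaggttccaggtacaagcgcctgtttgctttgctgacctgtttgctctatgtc
C9: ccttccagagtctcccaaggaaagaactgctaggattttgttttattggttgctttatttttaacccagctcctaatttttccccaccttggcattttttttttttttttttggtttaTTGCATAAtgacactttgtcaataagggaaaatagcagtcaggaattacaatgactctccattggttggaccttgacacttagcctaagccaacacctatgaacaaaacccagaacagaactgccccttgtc
C1qb: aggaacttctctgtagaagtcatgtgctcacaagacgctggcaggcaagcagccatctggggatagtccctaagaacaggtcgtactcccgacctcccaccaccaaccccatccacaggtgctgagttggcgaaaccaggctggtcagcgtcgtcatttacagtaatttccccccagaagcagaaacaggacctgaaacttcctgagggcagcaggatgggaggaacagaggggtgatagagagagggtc
C1qc: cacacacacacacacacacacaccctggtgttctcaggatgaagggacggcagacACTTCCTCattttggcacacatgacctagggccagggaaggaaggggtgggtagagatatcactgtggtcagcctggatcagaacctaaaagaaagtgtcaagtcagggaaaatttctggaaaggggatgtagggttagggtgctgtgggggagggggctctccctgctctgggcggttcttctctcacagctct
The windows lie at chr3:83025903-83026152 (plus strand), chr3:83049864-83050113 (minus), chr3:83007474-83007723 (plus), chr4:104876399-104876648 (minus), chr4:104766067-104766316 (plus), chr15:6445096-6445345 (plus), chr4:136886201-136886450 (minus) and chr4:136892915-136893164 (minus).

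In the Fga window the capitals mark a STAT5 match at -234 to -226 and a C/EBP match at -135 to -128 from the start. The Fgb window held a STAT5 match at -162 to -154, an interleukin-6 response element at -91 to -85 and a C/EBP match at -80 to -73, and the Fgg window held 1 interleukin-6 response element at -13 to -7. C8a had a STAT5 match at -228 to -220, C9 a C/EBP match at -132 to -125 and C1qc a PU.1 match on the opposite strand at -195 to -188. These letters were not in the C8b and C1qb windows. Promoter windows matched 35 of 46 members, some with more than 1 start (38 windows). C/EBP letters were in 9 of 38 member windows and in 9.56% of all 32851 RefSeq windows of the same length, STAT5 letters in 6 of 38 and 7.02%, interleukin-6 response elements in 5 of 38 and 9.1%, PU.1 letters in 1 of 38 and 2.44%, HNF1 letters in 2 of 38 (C4bp and F13b) and 0.37%, and HNF4 letters in 0 of 38 and 0.38%. Such matches describe letters only and say nothing on factor binding.

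The members also group by position. On GRCm38 (GENCODE M21), Fgg (chr3:83007724-83015049), Fga (chr3:83026076-83033627) and Fgb (chr3:83040141-83049863) are neighbours, as are C8b (chr4:104766317-104804548) and C8a (chr4:104815679-104876398), and C1qb (chr4:136880129-136886187), C1qc (chr4:136889804-136893065) and C1qa (chr4:136895917-136898803). C9 lies at chr15:6445327-6498751, on the same chromosome as C6 (chr15:4727175-4814967). All are protein-coding genes, and the count of each covers its exons.

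The first comparison set the preparations side by side. On chow, 39 of 46 members were higher in hepatocyte than in stellate cell libraries, F13a1 was higher in stellate cell libraries, and 6 (Pros1, C1qc, C3ar1, C5ar1, F3 and Thbd) did not pass edgeR's quasi-likelihood test at an adjusted p of 0.05 over all genes. The background was large: 59.6% of 15754 genes were called in this comparison, 26.8% of all towards the hepatocyte and 32.8% towards the stellate cell preparation. Among the 35 hepatocyte-made members 34 were higher in hepatocyte libraries, with a median log2 difference (stellate cell minus hepatocyte) of -4.75 and a range of -5.72 to -0.66, close to the -5.04 of the hepatocyte markers and against 0.203 over all genes. The 7 myeloid-made members had a median of -0.70, with C1qa, C1qb and Cfp higher in hepatocyte libraries and F13a1 the other way.

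**Figure D1:**
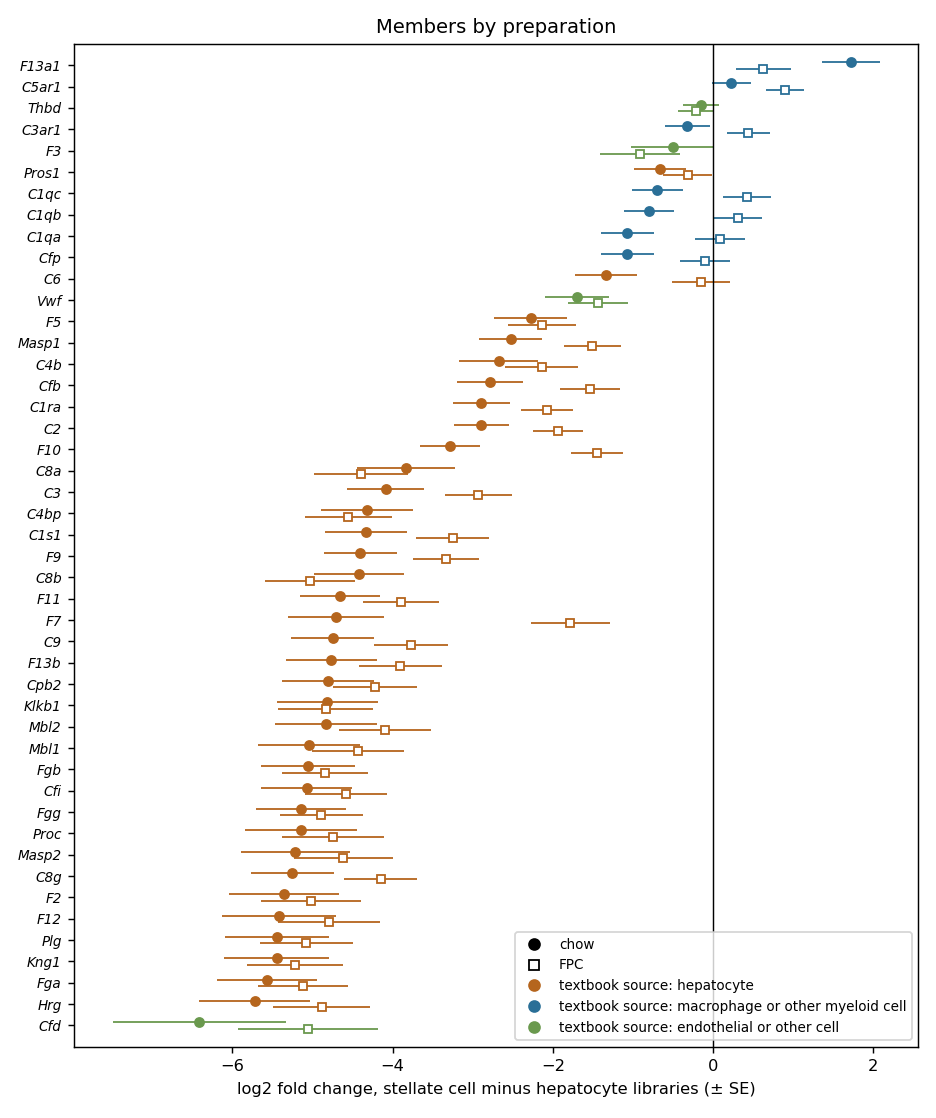
Log2 fold change (stellate cell minus hepatocyte libraries, mean of both sexes, ± SE) of the 46 members on chow (filled circles) and on FPC (open squares), coloured by textbook source. Hepatocyte-made members sit between -5.72 and -0.66 on chow, while the 7 myeloid-made members sit between -1.07 and 1.73.

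Fga, the alpha chain of fibrinogen, showed how wide the gap was. With all 31 libraries scaled together, it averaged 1013 ± 555 CPM (SD, n = 4) in female and 1966 ± 819 CPM in male hepatocyte chow libraries, against 25.0 ± 1.33 CPM (n = 3) and 35.3 ± 45.8 CPM (n = 4) in stellate cell libraries. The log2 difference was -5.57 ± 0.63 (SE, adjusted p = 1.19e-07, edgeR). Hrg, histidine-rich glycoprotein, which binds plasminogen and heparin in plasma, differed by -5.72 ± 0.69 and Kng1, the kininogen that yields bradykinin, by -5.45 ± 0.66 (adjusted p = 2.7e-07 and 2.8e-07, edgeR). Every hepatocyte library lay above every stellate cell library for Fga on either diet. Reads of the near copy Kng2 may be split with Kng1, as may those of C4a with C4b, C1rb with C1ra and C1s2 with C1s1.

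Cfd, the protease adipsin that activates factor B and that fat cells secrete, had the largest fitted difference (-6.41 ± 1.08, adjusted p = 2.8e-05, edgeR) on very few reads. Its hepatocyte chow libraries held 17, 5, 0 and 1 counts in females and 23, 19, 20 and 25 counts in males, and the 7 stellate cell chow libraries held 4 counts in total, so the fitted size depends on the prior count. F13a1, the A subunit of factor XIII that cross-links fibrin and that monocytes and macrophages make, was the member called in the other direction (log2 difference 1.73 ± 0.36, adjusted p = 0.000266, edgeR). It averaged 29.5 ± 20.2 and 22.6 ± 4.64 CPM (SD, n = 4 each) in female and male hepatocyte chow libraries and 62.0 ± 20.6 (n = 3) and 118 ± 68.3 CPM (n = 4) in stellate cell ones. The B subunit gene F13b, which hepatocytes make, went the opposite way (-4.76 ± 0.57, adjusted p = 2.63e-07, edgeR). The genes of the 2 subunits of factor XIII were thus parted by preparation on chow, while on FPC F13a1 was not called.

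Pros1, the gene of protein S, the cofactor of activated protein C, was the hepatocyte-made member that did not differ in the test (-0.66 ± 0.32, adjusted p = 0.0776, edgeR). C6, a terminal complement gene, was also nearly shared: its log2 difference was -1.34 ± 0.39 on chow (adjusted p = 0.00475, edgeR) and -0.14 ± 0.36 on FPC (adjusted p = 0.784). It averaged 249 ± 81.9 and 244 ± 29.0 CPM in female and male hepatocyte chow libraries and 129 ± 102 and 74.0 ± 34.0 CPM in stellate cell ones. F10, factor X of the common pathway, differed by -3.28 ± 0.37 on chow and -1.45 ± 0.33 on FPC, and F7, the factor VII that tissue factor activates, by -4.71 ± 0.60 and -1.78 ± 0.50. The change of these preparation differences with diet was not tested.

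Compared per kilobase of exon on the scale of all libraries together, the most abundant members in hepatocyte libraries on chow were C1qa (875 CPM per kilobase) and C1qb (872), ahead of C3 (714), the hub of the cascade, Fgg (542) and Fga (495). In stellate cell libraries C1qb (490.0), C1qa (403), C1qc (233) and Cfp (176) led, and C3 followed at 41.7 CPM per kilobase. These are means of both sexes, and the hepatocyte order differed between them. In female hepatocyte chow libraries C1qa (1158) and C1qb (1134) led, with C3 at 709. In male ones C3 (719), Fgg (717) and Fga (653) lay ahead of C1qb (611) and C1qa (593). Transcripts usually assigned to Kupffer cells thus took the first places in stellate cell libraries and in female, but not male, hepatocyte libraries. Kupffer cell markers were present in both preparations.

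On FPC, 35 of 46 members were higher in hepatocyte libraries and 1, C5ar1, in stellate cell libraries (background 23.2% of genes called, 17.0% towards the hepatocyte and 6.18% towards the stellate cell preparation). Leaving out hepatocyte male FPC library 4 also gave 36 calls in all. C5ar1, the receptor of the C5a fragment on myeloid cells, differed by 0.90 ± 0.24 (adjusted p = 0.00717, edgeR), with 60.3 ± 21.3 and 61.1 ± 15.5 CPM in female and male stellate cell FPC libraries against 32.7 ± 7.51 and 32.5 ± 5.66 CPM in hepatocyte ones (SD, n = 4 each). The largest differences were those of Kng1 (-5.22 ± 0.60), Fga (-5.12 ± 0.56) and Plg (-5.08 ± 0.58), the gene of plasminogen. None of C1qa, C1qb, C1qc, Cfp, C3ar1 and F13a1 was called on FPC. With GC and length offsets C1qa, C1qb and Cfp were not called on chow either, and C1qb and C1qc were higher in stellate cell libraries on FPC.

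Counts of the fibrinogen chains and of the C1q chains were compared with each other within each library. The count of Fgb to Fga ran from 0.749 to 1.47 over all 31 libraries (median 1.04) and that of Fgg to Fga from 0.511 to 1.26, although Fga itself ranged from 178 to 2679 CPM in hepatocyte and from 5.55 to 122 CPM in stellate cell libraries. C1qb to C1qa ran from 0.926 to 1.66 and C1qc to C1qa from 0.687 to 1.17. These are counts, not levels corrected for length. Between diets, Fgg to Fga rose without overlap in female hepatocyte libraries (0.691 to 0.819 on chow, 0.825 to 0.993 on FPC, log2 difference 0.28). In male stellate cell libraries C1qb to C1qa and C1qc to C1qa were higher on FPC without overlap (0.28 and 0.12). Each had p = 0.0286 in an exact permutation test and 0.114 after adjustment over 32 ratio comparisons, so none passed. The other diet comparisons of these ratios overlapped with all libraries included.

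The second comparison asked what the FPC diet did in hepatocyte libraries of each sex. In females, 0 of 46 members passed edgeR's test (background 0.249% of 14430 genes called), 14 (30.4%) had an unadjusted p under 0.05, beside 16.2% of all genes, and DESeq2 called 7, all lower (background 4.43%, 2.39% lower): C1qa, C1qb, C1qc, Mbl2, F11, C6 and F13b. The log2 fold change was negative for 40 of 46 members, with a median of -0.80 against 0.119 over all genes. In males, 2 of 46 were lower with all 4 FPC libraries, C8b and C9 (background 0.437% called, 0.36% lower), and 41 of 46 had a negative value, with a median of -1.13 against 0.076. DESeq2 called 12 in males, all lower (background 9.0%, 4.87% lower), among them F9, F10, F11 and the 2 fibrinogen genes Fgb and Fgg. Hepatocyte markers moved the same way, with a median of -1.55 in females and -1.997 in males, as did Kupffer cell markers in females (-1.48). The part of these shifts in the results below was not tested.

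C8b, the beta chain of the C8 complex, had 102, 279, 109 and 134 CPM in the male chow hepatocyte libraries and 10.6, 13.9, 4.16 and 45.6 CPM in the FPC ones. Chow and FPC did not overlap, and FPC library 4 was the highest of its group. The log2 fold change was -3.16 ± 0.60 (adjusted p = 0.0349, edgeR) and, without library 4, -4.00 ± 0.54 (adjusted p = 0.00225). C9, the protein that polymerises into the pore, had 129, 244, 126 and 169 CPM on chow and 30.2, 25.5, 19.9 and 85.6 CPM on FPC, again without overlap (-2.08 ± 0.40, adjusted p = 0.0349, edgeR, and -2.68 ± 0.31, adjusted p = 0.00225, without library 4). Both calls were lost when any chow library other than the first or any of FPC libraries 1 to 3 was left out, and in a fit of the male libraries alone.

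Without FPC library 4, the one rich in ribosomal RNA, the picture in males was broader. Of the 46 members, 31 were lower and F13a1 was higher (background 9.9% of 14520 genes called, 7.2% lower and 2.71% higher). All 31 were hepatocyte-made, and the 4 hepatocyte-made members not called were Masp1, C4b, C6 and Pros1. The median over the 35 was -2.34 without that library and -1.40 with it, beside -2.96 and -1.997 for hepatocyte markers. With library 4 included, groups did not overlap for 11 members lower and 1 higher (C3ar1), beside 11.1% and 6.14% of all genes. In 35 of 46 members FPC libraries 1 to 3 lay below every chow library, beside 22.5% of all genes, and in 24 of these library 4 lay at or above the lowest chow library. It held under 100 counts for 11 of the 46 members, the lowest being 5.

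**Figure D2:**
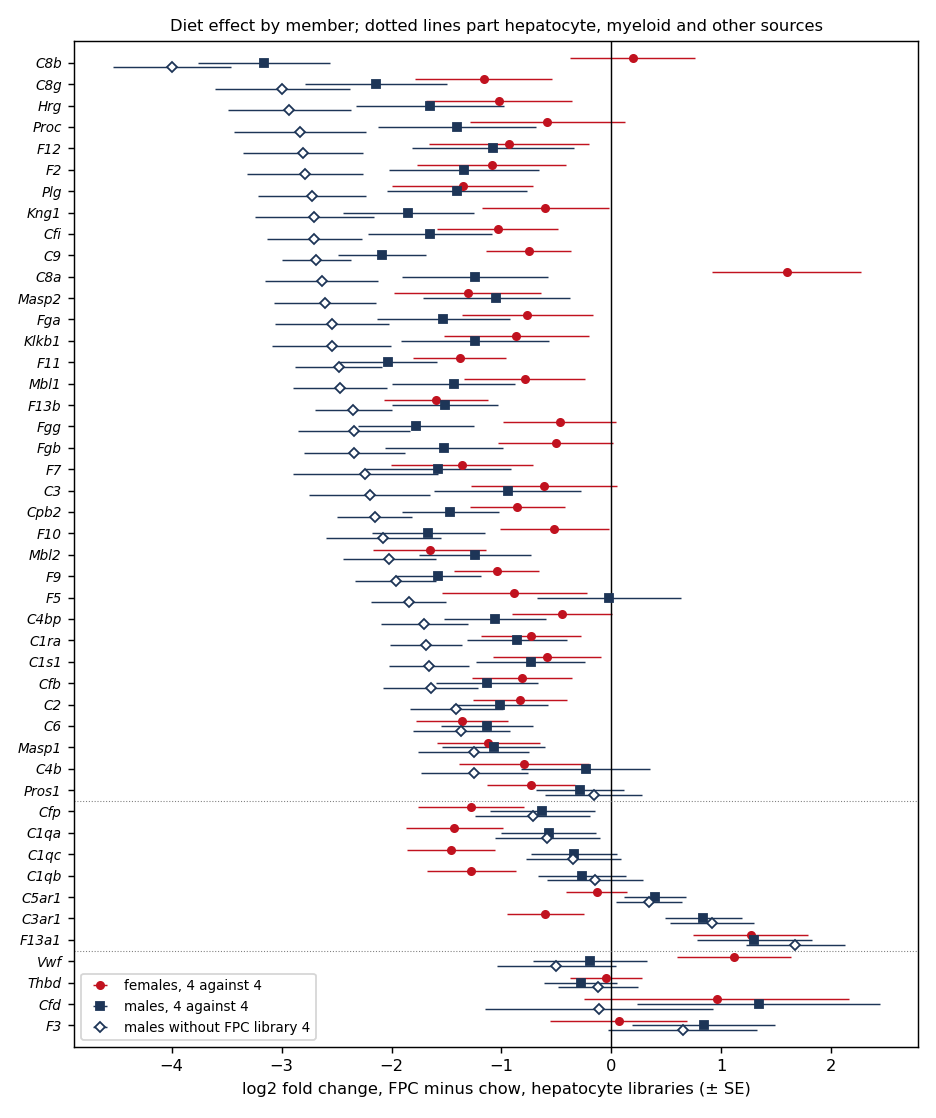
Log2 fold change of FPC against chow (± SE) for each member in hepatocyte libraries of females (circles), of males (squares) and of males without FPC library 4 (diamonds), with hepatocyte-made, myeloid-made and other members parted by dotted lines. Without that library the hepatocyte-made members have a median of -2.34 and the myeloid-made members one of -0.15.

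The fibrinogen chains showed this split library by library. Fga had 1220.0, 2679, 1425 and 1274 CPM on chow and 333, 313, 178 and 1469 CPM on FPC in male hepatocyte libraries. Fgb, the beta chain, had 1184, 2170.1, 1329 and 1284 CPM on chow and 365, 306, 187 and 1220 CPM on FPC, and Fgg, the gamma chain, had 1072, 1740.1, 1027 and 1194 CPM on chow and 313, 253, 156 and 750.2 CPM on FPC. FPC libraries 1 to 3 lay below the chow range for every chain, while library 4 lay inside it for Fga and Fgb. The log2 fold changes were -1.53 ± 0.61, -1.52 ± 0.54 and -1.78 ± 0.53 for Fga, Fgb and Fgg with all libraries (adjusted p = 0.148, 0.12 and 0.094, edgeR) and -2.54 ± 0.52, -2.34 ± 0.46 and -2.34 ± 0.51 without library 4 (adjusted p = 0.00813, 0.00652 and 0.0106). Their promoters, printed above, share no single one of the searched motifs in all 3 windows. In females the groups overlapped for Fga, with 1479, 506, 781 and 579 CPM on chow and 599, 751, 195 and 425 CPM on FPC (-0.76 ± 0.60, adjusted p = 0.535, edgeR).

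**Figure D3:**
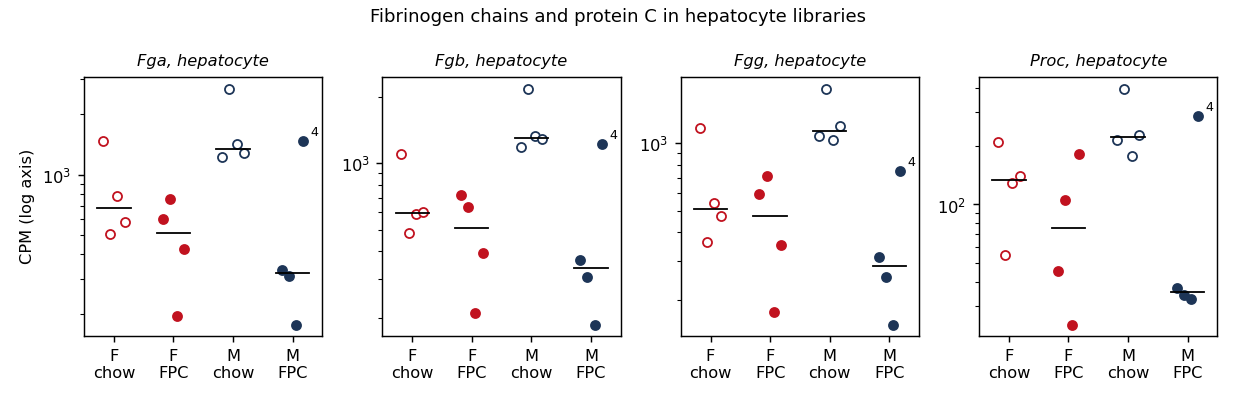
CPM (log axis) of Fga, Fgb, Fgg and Proc in the 16 hepatocyte libraries, chow open and FPC filled, females (F) red and males (M) blue, with a bar at each group's median. The point labelled 4 is male FPC library 4, which lies far above the other 3 FPC libraries of males for each gene.

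Set against albumin, however, the fibrinogen transcript was not lower on FPC. The count of Fga per count of Alb was 0.0344 to 0.0588 in male hepatocyte libraries on chow and 0.068 to 0.0786 on FPC, without overlap and with library 4 included. In females it was 0.0302 to 0.0655 on chow and 0.0455 to 0.0888 on FPC. The male difference of 0.67 on the log2 scale had p = 0.0286 in an exact permutation test, two-sided, the smallest that 4 against 4 allows, and 0.114 after adjustment over the 32 ratio comparisons made (8 ratios in 4 comparisons of diet), so it did not pass. Without library 4 the difference was 0.72 (exact permutation p = 0.0571). Scaled by the hepatocyte markers as a set, the medians of the hepatocyte-made members were 0.413 in females and 0.493 in males, above 0, while over all genes they were 1.35 and 2.56. On that scale C8a was higher in females (background 0.485% higher), and in males 20 members were higher and C8b lower (background 91.5% higher and 0.152% lower). By Kupffer cell markers 8 members were higher in females (background 77.5% higher).

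Other roles moved in the same manner in males without library 4. F11, factor XI of the contact system, had 12.6, 25.6, 22.3 and 18.9 CPM on chow and 4.15, 2.92, 3.23 and 11.1 CPM on FPC, with -2.03 ± 0.45 with all libraries and -2.48 ± 0.40 without library 4 (adjusted p = 0.0602 and 0.00262, edgeR). F9, factor IX, had 43.1 to 88.2 CPM on chow and 13.5 to 37.0 CPM on FPC (-1.58 ± 0.40, adjusted p = 0.0813, and -1.96 ± 0.37, adjusted p = 0.00518, without library 4), and Cpb2, the carboxypeptidase that slows fibrin lysis, had 89.3 to 172 CPM on chow and 20.4 to 98.5 CPM on FPC (-1.47 ± 0.44, adjusted p = 0.0951, and -2.15 ± 0.34, adjusted p = 0.00262, without library 4). Proc, the anticoagulant protein C, had 216, 394, 177 and 227 CPM on chow and 36.9, 34.0, 32.6 and 286 CPM on FPC, with -1.40 ± 0.72 and, without library 4, -2.83 ± 0.60 (adjusted p = 0.232 and 0.00944). Cfi, the protease that inactivates C3b and C4b, had 182 to 386 CPM on chow and 42.6, 36.4, 29.0 and 205 CPM on FPC, with -1.65 ± 0.57 and -2.70 ± 0.43 (adjusted p = 0.115 and 0.00262). Of the other genes of the protein C pathway, Pros1 had 108, 78.7 and 102 CPM in FPC libraries 1 to 3, inside its chow range of 48.4 to 168 CPM, and neither Pros1 nor Thbd, the thrombin receptor thrombomodulin, was called.

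In females, the members with the smallest p in the diet test came from both sources. C1qc had 663, 1068, 842 and 630.3 CPM on chow and 114, 383, 296 and 375 CPM on FPC in hepatocyte libraries, without overlap (-1.46 ± 0.40, adjusted p = 0.107, edgeR). C1qa had 892, 1294, 1130.2 and 667 CPM on chow and 123, 558, 278 and 520.2 CPM on FPC (-1.43 ± 0.44, adjusted p = 0.137). Mbl2, a mannose-binding lectin that hepatocytes make, had 205, 89.2, 95.9 and 125 CPM on chow and 44.7, 27.8, 21.7 and 69.7 CPM on FPC (-1.65 ± 0.51, adjusted p = 0.137). F13b had at least 22.6 CPM in each chow library and 7.82 to 11.5 CPM on FPC, without overlap (-1.60 ± 0.47, adjusted p = 0.131). F11 had at least 3.88 CPM in each chow library and 2.56 to 4.15 CPM on FPC (-1.38 ± 0.43), and C6 had 154 to 286 CPM on chow and 41.5 to 156 CPM on FPC (-1.36 ± 0.42), with an adjusted p of 0.137 for each in edgeR. Groups did not overlap for 6 members lower and 1 higher, beside 3.44% and 2.13% of all genes, and none of the 7 passed the edgeR test. Without female FPC library 2, C6 and Cfp were lower in the test (background 1.13%).

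C8a, the alpha chain of C8, was the member whose female FPC libraries all lay above chow. It had 9.58, 2.90, 2.72 and 9.52 CPM on chow and 29.6, 13.2, 16.0 and 16.1 CPM on FPC (1.59 ± 0.68, adjusted p = 0.265, edgeR). In males its chow libraries had 130.2, 365, 180 and 247 CPM and its FPC libraries 50.8, 25.7, 31.2 and 289 CPM (-1.24 ± 0.67, adjusted p = 0.253, and -2.63 ± 0.52, adjusted p = 0.00637, without library 4). C8b did not follow C8a in females, with 2.73 to 6.56 CPM on chow and 3.02 to 6.93 CPM on FPC. The median count of C8b to C8a went from 0.816 on chow to 0.217 on FPC in female and from 0.685 to 0.183 in male hepatocyte libraries, and from 0.385 to 0.137 in female and 0.436 to 0.131 in male stellate cell libraries. The groups overlapped in all of these but the last. The log2 differences were -1.62, -1.59, -1.50 and -1.53, with exact permutation p = 0.0571, 0.0571, 0.171 and 0.0286 and adjusted p = 0.152, 0.152, 0.304 and 0.114 over the 32 ratio comparisons, so none passed. Without male FPC library 4 the male hepatocyte difference was -1.43. Many of these ratios rest on few counts. The lowest count in a library was 21 on chow and 34 on FPC in female hepatocytes, and 374 and 74 in male ones. In stellate cell libraries it was 10 and 3 in females and 18 and 7 in males. A coding gene model, Gm17662, overlaps C8a, and no source used here gives the strand setting of the counting.

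The third comparison was between the sexes. On chow, 3 of 46 members were higher in male than in female hepatocyte libraries, C8a, C8b and C9 (background 0.43% of genes called, 0.298% higher in males), all of the terminal pathway. Per library, C8a had 2.72 to 9.58 CPM in females and 130.2 to 365 CPM in males (log2 difference 5.22 ± 0.79, adjusted p = 0.0025, edgeR). For C8b the ranges were 2.73 to 6.56 CPM and 102 to 279 CPM (5.19 ± 0.66, adjusted p = 0.000541), and for C9 they were 25.6 to 39.7 CPM and 126 to 244 CPM (2.27 ± 0.40, adjusted p = 0.0105). No male chow library overlapped a female one for any of the 3 genes, and C8a and C8b stayed called when any of the 8 libraries was left out. C9 was not called without female chow library 1, 2 or 3. The third C8 chain did not share the difference: C8g, the lipocalin-like gamma chain, had 490.0, 106, 244 and 209 CPM in females and 302, 473, 255 and 364 CPM in males (0.41 ± 0.62, adjusted p = 1.0). C6 was at -0.00 ± 0.41.

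**Figure D4:**
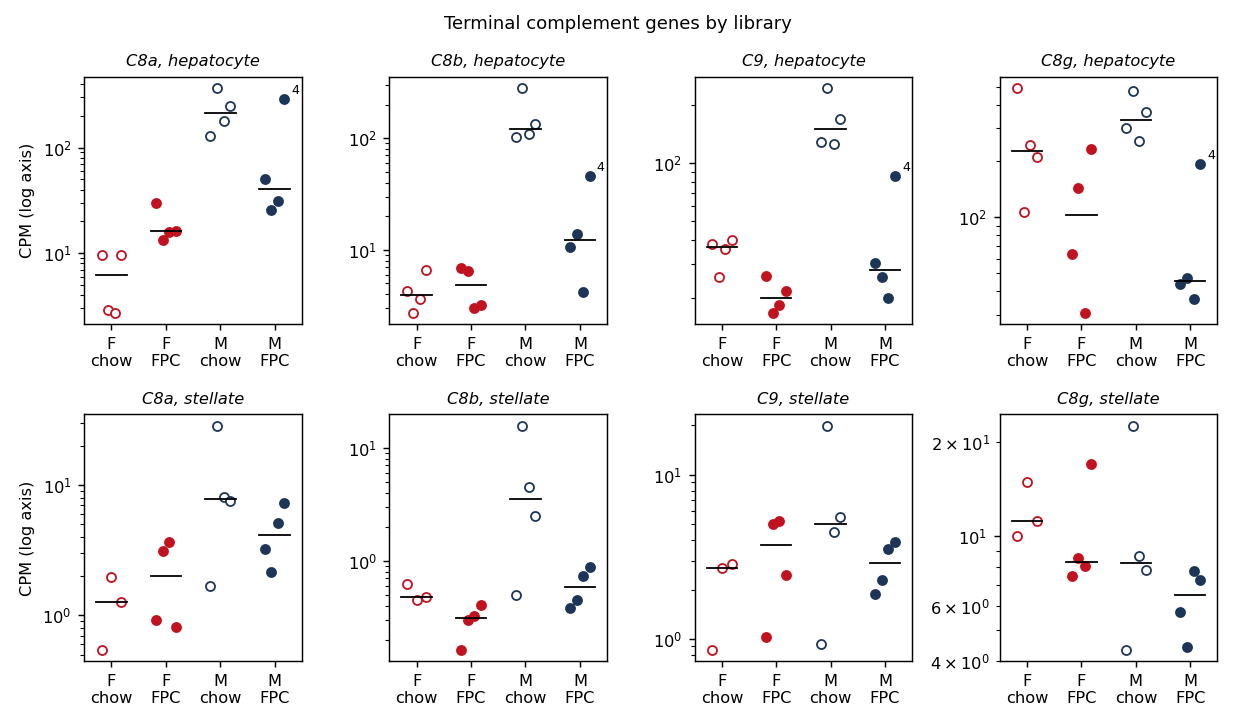
CPM (log axis) of C8a, C8b, C9 and C8g in hepatocyte (upper row) and stellate cell (lower row) libraries by sex (F, M) and diet, with a bar at each group's median and male FPC library 4 labelled 4. In hepatocyte libraries on chow the male values of C8a (130.2 to 365 CPM) lie far above the female ones (2.72 to 9.58 CPM), and C8g overlaps between the sexes.

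Beyond these 3, the other 32 hepatocyte-made members had a median log2 difference of 0.824 (male minus female), 28 of 32 above 0, beside 0.659 for hepatocyte markers, and the 7 myeloid-made members were all below 0 (median -0.87), beside -0.98 for Kupffer cell markers and -0.013 over all genes. Groups did not overlap for 10 members higher and 4 lower in males, against 2.81% and 1.9% of all genes. The 4 lower were C1qa, C1qc, Cfp and C3ar1, none of them called. Scaled by hepatocyte markers, C8a and C8b remained higher and C9 did not pass, and scaled by Kupffer cell markers all 3 were higher. The Kupffer cell markers were lower in males, so scaling by them moves every gene towards males. The share of all genes called on either scale is not given, so these calls stand without a background.

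On FPC, 0 of 46 members differed between the sexes in hepatocyte libraries by edgeR (background 0.333%), 6 had an unadjusted p under 0.05, beside 11.4% of all genes, and DESeq2 called Cfd and C8a (background 1.24%). C8a stood at 13.2 to 29.6 CPM in females and 25.7 to 289 CPM in males (2.38 ± 0.69, adjusted p = 0.26), C8b at 3.02 to 6.93 and 4.16 to 45.6 CPM (1.83 ± 0.58, adjusted p = 0.307). Without male FPC library 4 the differences were 0.967 ± 0.47 for C8a and 0.974 ± 0.46 for C8b (adjusted p = 0.57 and 0.568). Groups overlapped for every member, beside 1.43% and 1.16% of all genes higher and lower without overlap. The difference between the diet effects of the sexes was tested as an interaction. It was called for 0 of 46 members and 0 of 14430 genes by edgeR (4 members and 605 genes at an unadjusted p under 0.05) and for 0 members by DESeq2. The smallest p among the members was that of C8b, with a male diet effect lower than the female one by -3.35 ± 0.82 (unadjusted p = 0.00074, adjusted p = 0.978). Without male FPC library 4 this value was -4.20 ± 0.67 for C8b and -4.24 ± 0.68 for C8a (adjusted p = 0.0885 for each, edgeR), still short of the threshold.

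Stellate cell libraries were compared in the same way, with 45 members tested because Cfd fell below the filter on low counts. Neither diet comparison called any gene by edgeR (background 0.0% in females and in males), with 2 members (4.44%) in females and 14 (31.1%) in males at an unadjusted p under 0.05, beside 10.1% and 5.68% of all genes. DESeq2 called 0 members in females and C8b in males (background 0.428%). In females, Vwf, the adhesive protein that endothelium and platelets release, had 13.7, 17.9 and 11.1 CPM on chow and 27.2, 27.7, 19.7 and 69.2 CPM on FPC (1.34 ± 0.55, adjusted p = 0.45, edgeR). C5ar1 had 44.5, 31.8 and 34.6 CPM on chow and 37.2, 93.1, 73.8 and 86.1 CPM on FPC (0.97 ± 0.43, adjusted p = 0.482). Cfp had 354 to 963 CPM on chow and 209 to 407 CPM on FPC (-0.85 ± 0.41), and C1qa had 501 to 1089 and 188 to 727 CPM (-0.66 ± 0.46). Cfb, factor B of the alternative pathway, had 522, 95.5 and 73.0 CPM on chow and 79.3 to 135 CPM on FPC (-0.97 ± 0.59), and its value was 0.475 without female chow library 1. C1s1, a C1 protease, had 3.69 to 8.47 CPM on chow and 3.88 to 28.7 CPM on FPC (1.21 ± 0.71). None of these 4 was called, and the groups overlapped for each.

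In male stellate cell libraries, where no gene was called, the 7 myeloid-made members had a median of 1.03 beside 0.852 for Kupffer cell markers and 1.94 for the recruited macrophage list (monocyte-derived and lipid-associated), and the 35 hepatocyte-made members had a median of -1.09 beside -0.91 for hepatocyte markers. The second of these medians rested on male chow library 2, which held the most hepatocyte marker RNA (5393 CPM, against at most 1360 CPM in the male FPC libraries). It was -0.03 without that library, while the first stayed at 1.04. C3ar1, the receptor of the C3a fragment, had 48.1, 40.7, 41.2 and 28.4 CPM on chow and 81.6, 90.9, 141 and 146 CPM on FPC, without overlap (1.54 ± 0.40, adjusted p = 0.445, edgeR). It passed in a fit of the male libraries alone (background 0.387%). C1qb, with 519, 408, 454 and 290 CPM on chow and 408, 944, 1460.4 and 1219 CPM on FPC, overlapped through FPC library 1 (1.27 ± 0.43, adjusted p = 0.628).

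Of the 35 hepatocyte-made members, 25 had a value below 0 and 10 above 0 in these libraries, F7, F10 and Cfb (1.57 ± 0.56, adjusted p = 0.689, edgeR) among the 10. F7 had 1.35, 3.56, 0.974 and 1.07 CPM on chow and 11.2, 4.02, 11.3 and 10.2 CPM on FPC (2.40 ± 0.69, adjusted p = 0.555, edgeR), and F10 had 15.1, 35.0, 30.1 and 20.6 CPM on chow and 68.4, 42.4, 66.6 and 48.7 CPM on FPC (1.17 ± 0.35, adjusted p = 0.574). Neither overlapped, although neither passed the test. These 2 and C3ar1 were the 3 of 45 members tested with no overlap, all higher, beside 6.18% of all genes higher and 3.38% lower. That is near the share of all genes that were higher, so the lack of overlap does not set the members apart. In females, of 45 members tested, 1 (Vwf) was higher and 1 (C8b) lower without overlap, beside 1.64% and 2.48% of all genes. C8b was low in both groups, at 0.453 to 0.630 CPM on chow and 0.163 to 0.407 CPM on FPC (-0.85 ± 0.86, adjusted p = 0.705, edgeR). It had 35 counts in total on chow and 18 on FPC, so it is not read as a difference. In male stellate cell libraries C8b had 0.504, 15.6, 4.50 and 2.51 CPM on chow and 0.384, 0.454, 0.731 and 0.878 CPM on FPC (-3.23 ± 0.77, adjusted p = 0.403, edgeR). F11 had 0.196, 3.49, 1.09 and 0.493 CPM on chow and 0.207 to 0.324 CPM on FPC (-2.39 ± 0.78, adjusted p = 0.602, edgeR). The groups overlapped for both genes, and chow library 2 was the highest for each.

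**Figure D5:**
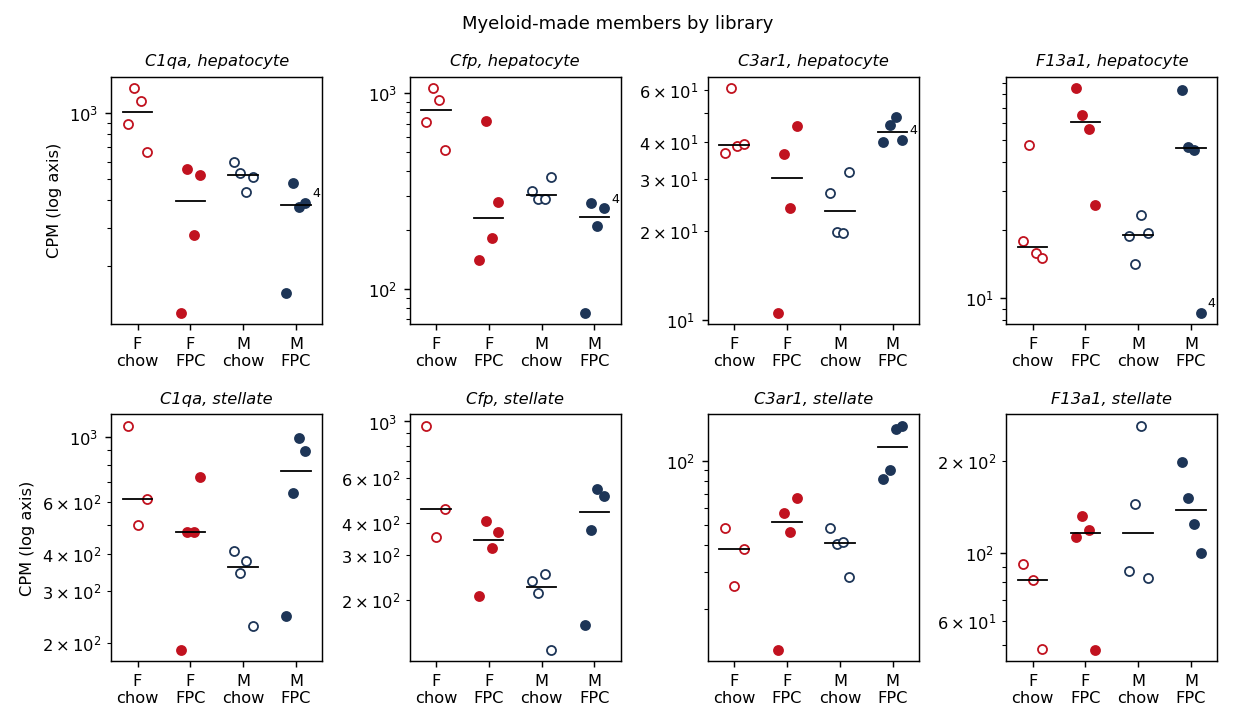
CPM (log axis) of C1qa, Cfp, C3ar1 and F13a1 in hepatocyte (upper row) and stellate cell (lower row) libraries by sex (F, M) and diet, with a bar at each group's median and male FPC library 4 labelled 4. In male stellate cell libraries C3ar1 lies at 28.4 to 48.1 CPM on chow and 81.6 to 146 CPM on FPC.

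C3ar1 and Cfp were each set against C1qa, as ratios chosen with earlier results known. The count of C3ar1 to C1qa, which does not depend on how libraries are scaled, was 0.0344 to 0.0593 on chow and 0.0655 to 0.0868 on FPC in female hepatocyte libraries, and 0.0374 to 0.0621 and 0.0952 to 0.265 in male ones. In stellate cell libraries it was 0.0443 to 0.0625 and 0.0681 to 0.12 in females, and 0.109 to 0.125 and 0.141 to 0.332 in males. FPC lay above chow without overlap in each of the 4 comparisons. The log2 differences were 0.86, 1.54, 0.82 and 0.63, with exact permutation p of 0.0286, 0.0286, 0.0571 and 0.0286, two-sided, where 0.0286 is the smallest that 4 against 4 allows, and adjusted p of 0.114, 0.114, 0.152 and 0.114 over the 32 ratio comparisons, so none passed. Without male FPC library 4 the male hepatocyte difference was 1.67. The count of Cfp to C1qa differed by 0.08, -0.10, -0.03 and -0.04 with overlap each time. F13a1 in hepatocyte libraries had 15.1 to 47.6 CPM on chow and 26.0 to 85.1 CPM on FPC in females (1.27 ± 0.52, adjusted p = 0.25, edgeR), and 14.2 to 23.3 and 8.62 to 83.5 CPM in males (1.30 ± 0.53, adjusted p = 0.152). Without male FPC library 4, where it was at 8.62 CPM, it was higher in the test (1.68 ± 0.45, adjusted p = 0.029). The recruited macrophage markers were at medians of 0.847 and 1.33 in the same female and male comparisons, 8 and 9 of 9 above 0, and their part in these results was not tested.

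Between the sexes, stellate cell libraries on chow gave 0 of 45 members by edgeR (background 0.0518% of 15430 genes), with 12 (26.7%) at an unadjusted p under 0.05, beside 29.5% of all genes. C8b and C8a again had the largest values, 3.45 ± 0.87 and 3.18 ± 0.89 (adjusted p = 0.0848 for each), at 0.453 to 0.630 and 0.540 to 1.98 CPM in females and 0.504 to 15.6 and 1.68 to 28.7 CPM in males. Cfp was at -1.50 ± 0.42 (adjusted p = 0.0848), and C1qa, C1qb, C1qc and Cfp lay lower in every male library than in every female one, beside 18.6% of all genes that did so. F5 lay higher in every male library, beside 20.3%. DESeq2 called C8a, C8b and F5 higher and C4b, Cfb and Cfp lower in males (background 15.9%). Without female chow library 4, edgeR called C8b higher and C4b, Cfb and Cfp lower (background 19.1% of genes called). On FPC 0 of 45 were called by edgeR (background 0.0583%, 1 member at an unadjusted p under 0.05, beside 10.0% of all genes) and 0 by DESeq2. C3ar1 lay higher in every male library on FPC, beside 2.61% of all genes higher and 1.91% lower. The interaction was called for 0 members by either tool, with 7 (15.6%) at an unadjusted p under 0.05, beside 8.69% of all genes, and none of 15430 genes called by edgeR.

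Other genes of both cascades, from lists of 25 complement and 25 coagulation and fibrinolysis genes, were tested in the same fits. On chow, 15 of 25 complement genes tested were higher in hepatocyte and 4 (Cd46, Cr2, Itgam and Itgb2) in stellate cell libraries, and of 24 coagulation genes tested 15 and 3 (F2rl1, F2rl3 and Plaur), beside 26.8% and 32.8% of all genes. Their median differences were -1.22 and -1.09, against -4.37 for the 46 members. Between diets, 1 of these genes was called, Fcna, a ficolin that macrophages make. It had 492 to 607 CPM on chow and 60.5 to 153 CPM on FPC in female hepatocyte libraries (-2.20 ± 0.37, adjusted p = 0.0217, edgeR). Between the sexes 0 of them were called in either preparation by edgeR.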

How the data were processed

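The values are whole-number counts for each gene symbol in each library, as the authors deposited them. The submitters' processing notes name STAR, featureCounts and the build mm10, with no versions, strand setting or annotation. Per the labels' protocols, RNA was amplified with NuGEN Ovation reagents, which are not described there as marking strand. Positions, exon lengths and GC content came from GENCODE M21 (46 of 46 members matched) and promoters from RefSeq on GRCm38.p6.

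The analysis used R 4.3.3 with edgeR 4.0.16. Each preparation was filtered with filterByExpr, scaled by TMM and fitted with one quasi-likelihood model of 4 groups. The preparation difference was fitted on all 31 libraries in 8 groups, as the mean of both sexes. Tests were two-sided with Benjamini-Hochberg adjustment over all genes and a threshold of 0.05. CPM values are TMM-scaled within a preparation unless said otherwise. Ratios were tested with exact permutation tests.

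The members, lists, comparisons and alternatives were chosen with earlier results of these data known. Values of every library or their range are given for members called in a diet or sex test, for the 6 smallest p of a diet test, for the largest differences between preparations, and for 1 member of each role not yet shown (Proc and Cfi). The ratios were chosen outside that rule, and their repeat without hepatocyte male FPC library 4 was added after the data were seen.

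Each library came from its own mouse, per the series' design text, and no 2 libraries held identical values. Shared replicate numbers were checked through the correlation of deviations from group means. Every pair was over 0.1 only for female with male FPC hepatocytes (0.155 to 0.549) and for male chow hepatocytes with stellate cells (0.158 to 0.355). In the latter, each hepatocyte library correlated best with the stellate cell library of its own number. The highest single values, 0.775 and 0.72, were for female FPC hepatocytes with stellate cells, where another pair was at -0.31. The main fit of the preparations paired no libraries. On simulated counts with known changes among 14430 genes, the hepatocyte diet test found 4.5% of the 2-fold changes in either sex. It found 55.2% of those of 4-fold and 80.3% of those of 8-fold size in males, and 52.2% and 84.8% in females. DESeq2 1.42.0, other scalings, no filter, a replicate block, GC and length offsets, fits of the compared groups alone and leaving out each library were run as alternatives.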

Additional observations from a re-analysis of the deposited data

Results flagged for a closer look

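Each of 29 members was examined in the groups of 4 libraries for a single library far from the other 3 (195 groups, a gap over Dixon's critical share of the group's range, on the log2(CPM + 1) scale). Chance flags about 1 in 20 groups, and 11 were found. Among hepatocyte libraries, male FPC library 4 stood high for Proc at 286 CPM (others 32.6 to 36.9) and for Mbl2 at 115 CPM (others 24.4 to 29.9), and male FPC library 1 stood low for C1qc at 154 CPM (others 379 to 425). Female chow library 2 stood high for F13a1 at 47.6 CPM (others 15.1 to 17.9) and for C3ar1 at 60.7 CPM (others 36.8 to 39.5), and female FPC library 3 stood low for Kng1 at 105 CPM (others 474 to 603).

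In stellate cell libraries, C6 was low in male chow library 4 at 30.1 CPM (others 102 to 125) and in male FPC library 1 at 40.8 CPM (others 148 to 192). Cfb was low in female FPC library 1 at 79.3 CPM (others 127 to 135), F13a1 in female FPC library 4 at 48.0 CPM (others 113 to 131), and F7 in male FPC library 2 at 4.02 CPM (others 10.2 to 11.3).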

How the results depend on the processing

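Counts of called members stayed within 1.5 times of those reported in 185 of 207 alternatives. In most comparisons the main fit called 0 members, so an unchanged count says little there. The preparation split stayed at 38 to 41 members on chow and 36 to 38 on FPC. For the diet in hepatocytes, DESeq2 called 7 members in females and 12 in males, scaling by hepatocyte markers 1 and 21, and scaling by Kupffer cell markers 8 in females, when most genes moved with the scale (77.5% of all genes higher in females by Kupffer cell markers, 91.5% in males by hepatocyte markers). In males GC and length offsets left 1, the male libraries alone left 0, and leaving out 1 library gave 0 to 32. In females leaving out 1 library gave 0 to 2. DESeq2 called 2 members between the sexes on FPC in hepatocytes, 1 in the male stellate cell diet comparison (1 also in those libraries alone), and 6 between the sexes on chow in stellate cells, where Kupffer cell scaling and the compared libraries alone gave 4 each and leaving out 1 library 0 to 4. With the replicate block the calls were 0 in females and 2 in males for the diet in hepatocytes, 3 and 0 between the sexes, 0 in each stellate cell comparison, and 40 and 36 between preparations. Compared by name, the members called with and without the block were the same in each of these comparisons.

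Signs turned in 13 of 618 checks of named members. Scaled by Kupffer cell markers, female hepatocyte values became 0.043 (C1qc), 0.133 (C6), 0.051 (C1qa) and 0.289 (F11), and female stellate cell values 0.343 (Cfp), 0.48 (Cfb) and 0.458 (C1qa). Scaled by hepatocyte markers, male values became 0.035 (C9), 0.222 (F11), 0.723 (F9), 0.331 (Fgg) and 0.58 (Cpb2). Cfb ran from -1.413 to 0.475 in stellate female libraries when 1 was left out, the latter without chow library 1. The log2 difference between diets of the Fgg to Fga ratio in male hepatocytes turned from -0.05 to 0.15 without FPC library 4, in a check added after the data were seen. The cause was not tested. On simulated counts with few genes changed, 4.5% of 2-fold changes were found in the hepatocyte diet test of either sex. The share was 14.9% in the male stellate cell diet test and 28.4% between preparations on chow. Recovery with more genes changed was not simulated.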
